A study of Rattus norvegicus with 13 samples.

Results

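The genes described here encode the proteins of the mitochondrial ribosome. They were chosen by name, as the probe sets with a single annotated symbol that begins with Mrpl (large subunit) or Mrps (small subunit) followed by a digit. This gave 97 of 31099 probe sets and 73 of the 14217 genes that could be named, 46 with an Mrpl and 27 with an Mrps symbol. Of the 73 genes, 55 had 1 probe set and 18 had several.

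Mitochondria keep a small genome of their own, whose messenger RNAs code for core subunits of the respiratory chain and of ATP synthase and are read by a dedicated ribosome inside the organelle. All proteins of this ribosome are encoded in the nucleus, made in the cytosol and imported, some descended from bacterial ribosomal proteins and others found only in mitochondria. In neurons, where mitochondria are carried far into the axon, messenger RNAs for mitochondrial proteins are among those known to be present in axons and translated there.

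Rat cortical neurons were cultured for 13 days in microfluidic platforms that let axons be harvested apart from cell bodies, and polyadenylated RNA was measured on GeneChip arrays. Regenerating axons (3 arrays) were cut on day 11 and harvested after 2 days of regrowth. Neurons (3 arrays) were the material of the neuronal compartment of uncut cultures. Uninjured axons (7 arrays, 3 culture batches) were uncut and harvested at the same age. All groups shared the same culture medium, each array held material from 3 pooled platforms, and RNA went through 2 rounds of amplification. The labels name no strain or genotype and no glial depletion.

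Each deposited value is a ratio, not a signal level, so whether a transcript was present at all cannot be read from it, and levels cannot be compared between genes. The 6 usable uninjured arrays centre on 1 by construction, and array 7 reads 1 for every probe set and carries no measurement. What the regenerating and the neuron arrays were divided by is not stated. It was taken to be the uninjured level, and every direction against uninjured axons rests on that. A gene's value is the geometric mean ratio of its probe sets. Errors are standard errors (SE) of the limma fit, with n = 3 arrays in each of the regenerating and neuron groups. Against uninjured axons they also hold an assigned error for a reference of 1 array, and the spread is pooled with that of the uninjured arrays. Adjusted p-values are Benjamini-Hochberg values over all 14217 genes, read at a threshold of 0.05. The labels do not tie single arrays to culture batches, and give no batches for the regenerating axons and neurons, so the spread between arrays may be technical. In pooled harvests, fewer structures that hold a transcript and less transcript in each cannot be told apart. All 11 measured neuronal marker genes and 7 of 8 measured astrocyte marker genes were higher in neurons than in uninjured axons. Of 6 oligodendrocyte marker genes 3 were higher and 1 lower in neurons, and all 7 microglia marker genes were lower there. Of 6 marker genes of dividing cells 1 was higher and 1 lower in neurons. Over all genes 36.9% were called higher and 23.0% lower in neurons. Neuronal markers had median log2 ratios of -1.21 to -0.53 on the regenerating arrays, 2.80 to 3.38 on the neuron arrays and -0.19 to 0.23 on the uninjured arrays. The part of cell composition in the results below was not tested.

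Regulatory sequence was examined first, because many nuclear genes for mitochondrial proteins carry sites for NRF1 or for ETS-family factors such as GABP just before their start. RefSeq promoter sequences of the GRCr8 assembly were at hand for 59 of the 73 genes. The letters GCGCANGCGC, an NRF1-type motif, occurred on either strand in the 250 bases before the start of 7 of these genes (11.9%), against 3.75% of 33469 promoters of all genes. The letters CCGGAAG, an ETS-type motif, which neither holds nor lies within the first, occurred in 13 genes (22%), against 7.27% of all promoters. A match describes these letters only and is no evidence of binding. The 3 stretches below belong to the gene with the largest neuron ratio and to a pair of genes with low regenerating ratios, chosen after their values were seen, with the matched motif in capitals.
Mrpl17, NRF1-type motif, chr1:169575700-169575949, minus strand: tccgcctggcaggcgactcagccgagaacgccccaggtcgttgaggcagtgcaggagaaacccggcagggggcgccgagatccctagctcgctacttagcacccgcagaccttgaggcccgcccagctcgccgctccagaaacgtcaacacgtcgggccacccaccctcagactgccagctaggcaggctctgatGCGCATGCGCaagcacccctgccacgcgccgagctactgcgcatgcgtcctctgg
Mrpl27, ETS-type motif, chr10:80092095-80092344, plus strand: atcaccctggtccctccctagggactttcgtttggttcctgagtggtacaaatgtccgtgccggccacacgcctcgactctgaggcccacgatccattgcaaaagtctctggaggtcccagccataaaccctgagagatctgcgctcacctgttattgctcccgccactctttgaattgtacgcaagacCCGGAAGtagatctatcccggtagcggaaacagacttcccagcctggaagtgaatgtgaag
Mrps18a, ETS-type motif, chr9:22367381-22367630, minus strand: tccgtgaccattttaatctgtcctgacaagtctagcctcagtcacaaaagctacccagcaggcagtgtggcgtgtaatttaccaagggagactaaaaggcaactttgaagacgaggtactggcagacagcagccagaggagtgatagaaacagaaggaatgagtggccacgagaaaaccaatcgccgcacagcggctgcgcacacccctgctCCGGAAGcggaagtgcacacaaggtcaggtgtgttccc
The neuron ratios of the 7 genes with the NRF1-type letters lay at log2 0.04 to 3.40, while those of all members lay at -0.91 to 3.40. *Mrpl17* stood at log2 3.40, *Mrps18b* at 2.10, *Mrpl30* at 1.45, *Mrpl57* at 0.87, *Mrpl44* at 0.66, *Mrpl45* at 0.45 and *Mrpl32* at 0.04. The regenerating ratios of the 13 genes with the ETS-type letters lay between log2 -3.01 for *Mrpl27* and 0.03 for *Mrps27*. Those of all members lay at -3.32 to 0.59. A link between either motif and the ratios was not tested.

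On the regenerating arrays the genes sat mostly below 1, and on the neuron arrays mostly above. The median log2 ratio over the 73 genes was -0.46, -0.53 and -0.49 on regenerating arrays 1, 2 and 3, while the median over all genes was 0.01, 0.02 and 0.01. On neuron arrays 1, 2 and 3 it was 1.56, 0.62 and 1.78, against 0.23, 0.11 and 0.33 for all genes. The uninjured arrays lay between -0.18 and 0.12. Thus the 3 regenerating arrays were close to each other, whereas neuron array 2 stood well below the other neuron arrays. Every regenerating array was below 1 for 44 of the 73 genes (60.3%, against 28.3% of all genes), and every neuron array was above 1 for 55 (75.3%, against 50.4%). Neuron array 2 was the lowest of its group for 69 genes (94.5%, against 50.4% of all genes), the exceptions being *Mrpl38*, *Mrpl40*, *Mrpl51* and *Mrps2*. Over 18 hybridisation control probe sets, which read added bacterial transcripts, the median ratio was 1.14, 1.44 and 1.57 on the regenerating arrays, 0.276, 0.910 and 0.157 on the neuron arrays and 0.928 to 1.10 on the uninjured arrays. The part of this difference in the members' ratios was not tested.

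**Figure D1:**
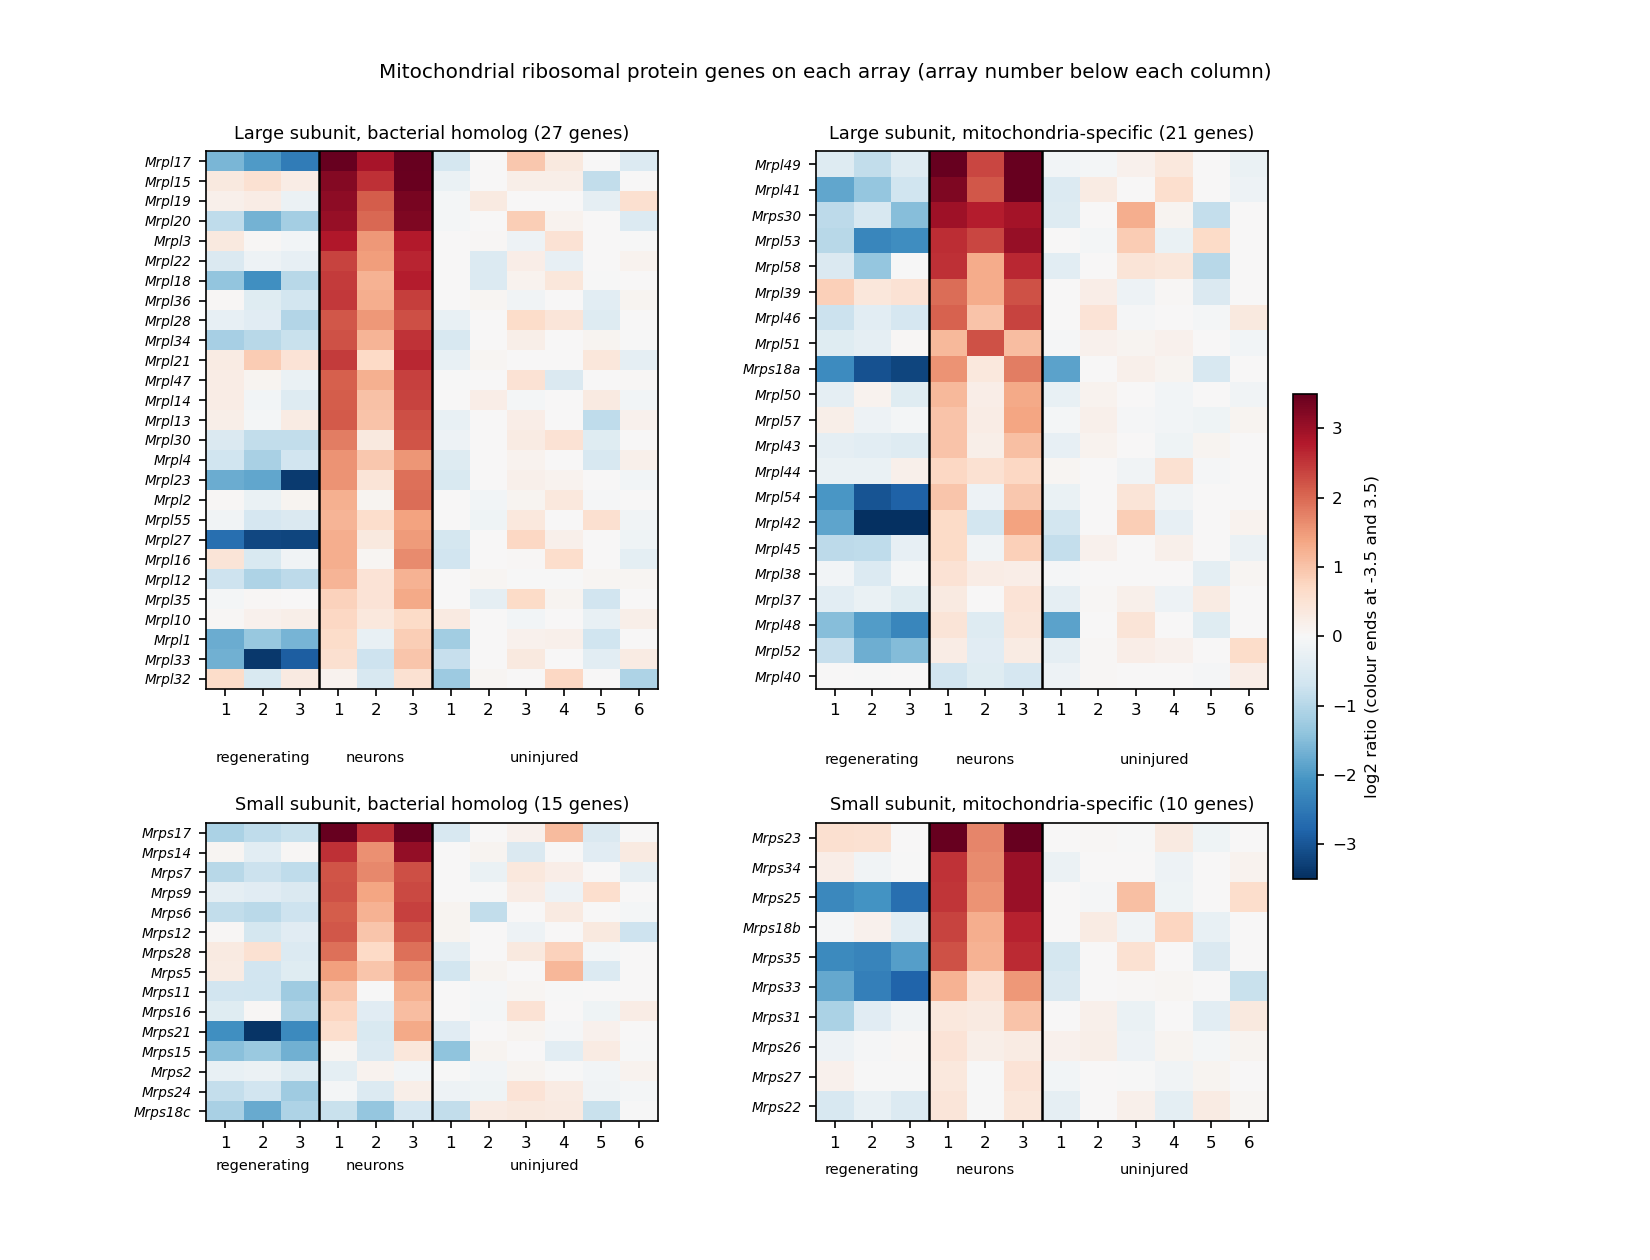
Heat map of the log2 ratio of each of the 73 genes (rows, ordered by their neuron mean) on the 12 arrays with a measurement (columns: regenerating axons, neurons, uninjured axons). Genes are split by subunit in the mammalian structure, where *Mrps30* and *Mrps18a* lie in the large subunit. They are split further into bacterial homologs and mitochondria-specific genes, with *Mrps18a* and *Mrps18b* counted as mitochondria-specific. Blue columns on the left are lowest for genes such as *Mrpl42*, *Mrpl27* and *Mrps21*, and the middle neuron column holds the lowest neuron value for 69 genes.

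Regenerating axons were compared with uninjured axons to ask which transcripts differ after cutting and regrowth. Of the 73 genes, 6 passed the test as lower in regenerating axons (8.22%, where 0.689% of all genes were called lower), 67 did not pass, and none was called higher, where 0.0352% of all genes were. At an unadjusted p under 0.05, limma gave 30 members lower and 0 higher, where 1247 and 522 of the 14217 genes were. The median log2 ratio of the members was -0.49, against 0.02 over all genes. It was below 0 for 59 and above 0 for 14 genes, and 20 genes were at least 2-fold lower (5.27% of all genes were), while none was at least 2-fold higher (0.0844% of all genes were). For 31 genes every regenerating array lay below every uninjured array (12.5% of all genes), and for 2 every one lay above (10.3% of all genes).

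The called genes belong to both subunits. *Mrpl27* encodes the large-subunit protein whose bacterial counterpart reaches into the peptidyl transferase centre, where peptide bonds form. Its ratio was 0.162, 0.110 and 0.107 in regenerating axons, against a lowest, median and highest value of 0.649, 1 and 1.66 in uninjured axons. The groups were far apart, and *Mrpl27* was 8.06-fold lower (log2 -3.01 ± 0.43, adjusted p = 0.0306). *Mrpl54*, a mitochondria-specific protein of the large subunit, read 0.244, 0.123 and 0.140 in regenerating axons, against 0.847, 1 and 1.36 in uninjured axons. It was 6.20-fold lower, again without overlap (log2 -2.63 ± 0.36, adjusted p = 0.0306).

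Among small-subunit genes, *Mrps21*, the homolog of bacterial S21, had ratios of 0.225, 0.0926 and 0.211 in regenerating axons, against 0.762, 1 and 1.10 in uninjured axons. Regenerating array 2 was the lowest, and no array of the groups overlapped (log2 -2.61 ± 0.42, adjusted p = 0.0359). *Mrps33*, which has no bacterial counterpart, read 0.289, 0.190 and 0.142 in regenerating axons, against 0.582, 1 and 1.04 in uninjured axons (log2 -2.33 ± 0.42, adjusted p = 0.0455). *Mrps35*, likewise mitochondria-specific, read 0.213, 0.201 and 0.265 in regenerating axons, against 0.659, 1 and 1.45 in uninjured axons. Its 3 regenerating arrays lay close together and below all uninjured arrays (log2 -2.15 ± 0.38, adjusted p = 0.0416).

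*Mrpl12* encodes a protein of the ribosomal stalk that also binds the mitochondrial RNA polymerase in human and mouse cells. It read 0.604, 0.473 and 0.525 in regenerating axons, against 0.993, 1.02 and 1.06 in uninjured axons. The change was the smallest of the called genes, and the uninjured arrays spanned a narrow range (log2 -0.91 ± 0.17, adjusted p = 0.0455). This call rested on 1 of its 2 probe sets, as described below.

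These calls depended on which arrays entered. Without regenerating array 1, 12 members were called lower (2.54% of all genes), without array 2 there was 1, *Mrps21* (0.0211%), and without array 3 there was none, as for all genes (0.0%). Leaving uninjured array 1 out of the spread, a choice made after seeing the data, gave 12 (1.8% of all genes), and leaving uninjured arrays 4 to 6 out gave 0. With the reference taken as exact, 36 members passed as lower, where 14.0% of all genes did, and 2 as higher, where 11.2% did. With the 6 uninjured arrays as an ordinary group 33 passed as lower, where 11.4% of all genes did, and 2 as higher, where 7.7% did.

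**Figure D2:**
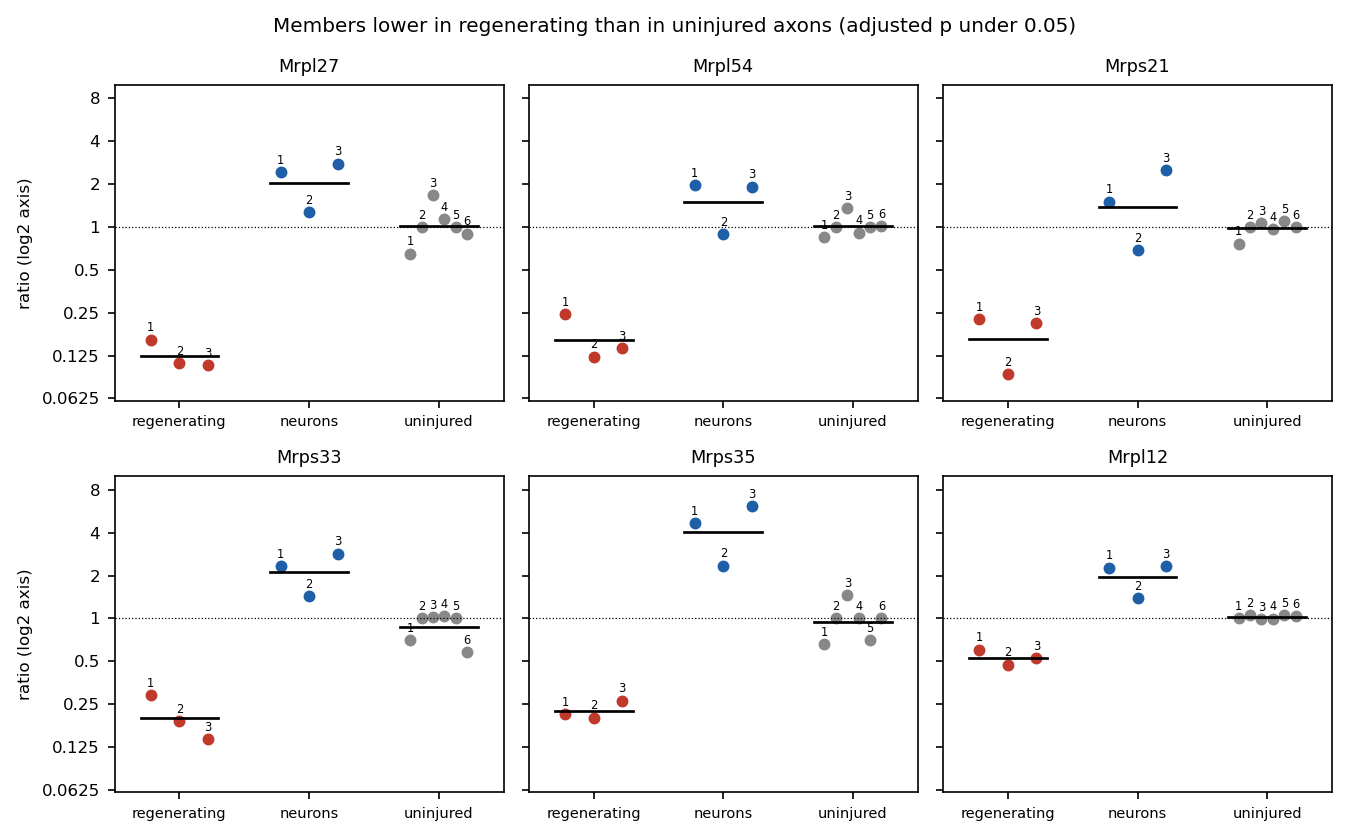
Ratio per array, on a log2 axis, of the 6 genes called lower in regenerating than in uninjured axons, with regenerating axons left, neurons in the middle and uninjured axons right. Points are arrays with their number, bars are geometric means and the dotted line marks 1. The regenerating arrays lie below all uninjured arrays in each panel.

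Other low members did not pass the test. *Mrpl42*, a mitochondria-specific large-subunit gene, had the lowest mean of all, with ratios of 0.281, 0.0610 and 0.0585 in regenerating axons, against 0.637, 1 and 1.83 in uninjured axons. Regenerating array 1 was well above the other regenerating arrays, and the gene did not pass (log2 -3.32 ± 0.81, adjusted p = 0.0998). *Mrps18a*, 1 of 3 mammalian paralogs of bacterial S18 and a large-subunit protein by structure, read 0.218, 0.120 and 0.109 in regenerating axons, against 0.272, 1 and 1.12 in uninjured axons. Uninjured array 1 supplied the 0.272, close to the regenerating values (log2 -2.82 ± 0.70, adjusted p = 0.105). *Mrpl33* read 0.314, 0.0962 and 0.136 in regenerating axons, against 0.573, 1 and 1.26 in uninjured axons, without overlap (log2 -2.64 ± 0.60, adjusted p = 0.0824).

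The upper end held no called gene. *Mrpl39* read 1.79, 1.33 and 1.43 in regenerating axons, against 0.699, 1 and 1.17 in uninjured axons. Although the groups did not overlap, the gene did not pass (log2 0.59 ± 0.26, adjusted p = 0.405). *Mrpl15*, whose bacterial counterpart acts in large-subunit assembly, also lay above every uninjured array, with 1.27, 1.46 and 1.2 in regenerating axons, against 0.552, 1 and 1.16 in uninjured axons (log2 0.38 ± 0.35, adjusted p = 0.781). *Mrpl21* (log2 0.55 ± 0.29), *Mrps23* (0.37 ± 0.24), *Mrpl32* (0.15 ± 0.71) and *Mrpl10*, which anchors the stalk (0.14 ± 0.22), followed with adjusted p-values of 0.501 to 0.973.

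Neurons were compared with uninjured axons to ask how transcript levels differ between the cell body compartment and the axon. Of the 73 genes, 39 were higher in neurons (53.4%, where 36.9% of all genes were called higher), 1 was lower (23.0% of all genes were) and 33 did not pass. The median log2 ratio of the members was 1.33, against 0.22 over all genes, and 43 genes were at least 2-fold higher (31.1% of all genes were) and none at least 2-fold lower (9.35% of all genes were). Every neuron array lay above every uninjured array for 45 genes (41.8% of all genes) and below for 1 (30.3% of all genes). The comparisons of neurons and of regenerating axons share the same uninjured arrays.

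The 8 genes with the largest neuron ratios came from both subunits. Among large-subunit genes of bacterial descent, *Mrpl17*, whose product lies near the exit of the peptide tunnel, read 11.96, 7.43 and 13.3 in neurons, against 0.651, 1 and 1.91 in uninjured axons. All neuron arrays were well above the uninjured range (log2 3.40 ± 0.54, adjusted p = 0.000711). *Mrpl15* read 9.34, 5.91 and 11.0 in neurons, against 0.552, 1 and 1.16 in uninjured axons (log2 3.08 ± 0.43, adjusted p = 0.000339). *Mrpl19*, at the subunit interface in bacteria, read 8.82, 4.33 and 10.1 in neurons, against 0.809, 1 and 1.47 in uninjured axons. It too was separated on every array (log2 2.86 ± 0.45, adjusted p = 0.000692).

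Mitochondria-specific large-subunit genes reached similar values. *Mrpl49* read 11.4, 5.03 and 13.6 in neurons, against 0.857, 0.977 and 1.29 in uninjured axons (log2 3.20 ± 0.46, adjusted p = 0.000411). Both of its probe sets were above the uninjured range on every neuron array. *Mrpl41* read 9.63, 4.51 and 12.4 in neurons, against 0.714, 1 and 1.5 in uninjured axons (log2 3.02 ± 0.52, adjusted p = 0.00105). *Mrps30*, named for the small subunit and placed in the large one by structure, read 7.77, 6.67 and 7.56 in neurons, against 0.564, 1 and 2.41 in uninjured axons. Its neuron arrays were the most even of the 8 highest genes (log2 2.87 ± 0.57, adjusted p = 0.00222).

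In the small subunit, *Mrps17*, a homolog of bacterial S17, read 12.1, 5.88 and 15.9 in neurons, against 0.676, 1 and 2.15 in uninjured axons (log2 3.38 ± 0.63, adjusted p = 0.00169). *Mrps23*, which is mitochondria-specific, read 11.8, 3.25 and 12.6 in neurons, against 0.894, 1 and 1.24 in uninjured axons (log2 2.97 ± 0.61, adjusted p = 0.00279). Neuron array 2 was lowest for both, and without it *Mrps23* stood at log2 3.61. *Mrps7*, of the head of the small subunit, rose evenly, with 4.60, 3.19 and 4.74 in neurons, against 0.808, 1 and 1.28 in uninjured axons (log2 2.04 ± 0.31, adjusted p = 0.000541). *Mrps12*, part of the decoding centre, was also higher, at 4.54, 1.95 and 4.62 in neurons, against 0.610, 1 and 1.27 in uninjured axons (log2 1.78 ± 0.50, adjusted p = 0.0123).

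The lower end held genes at or below the uninjured level. *Mrpl40* was the member called lower in neurons, with 0.625, 0.749 and 0.662, against 0.880, 1 and 1.17 in uninjured axons. The arrays did not overlap, but the difference was small (log2 -0.56 ± 0.19, adjusted p = 0.0296), and without neuron array 1 or 3 it did not pass (adjusted p = 0.0723 and 0.0532). The call rested on probe set 1374931_at, at 0.398, 0.610 and 0.406 in neurons, whereas probe set 1388517_at read 0.983, 0.921 and 1.08. *Mrps18c*, the paralog that holds the place of bacterial S18 in the small subunit, read 0.582, 0.392 and 0.661 in neurons, against 0.549, 1.10 and 1.28 in uninjured axons. These ranges overlapped (log2 -0.91 ± 0.53, adjusted p = 0.160). Its probe sets disagreed, with 1382418_at at 0.273, 0.281 and 0.309 in neurons, 1379378_at at 0.575, 0.395 and 0.696, and 1380447_a_at at 1.26, 0.544 and 1.34. *Mrps2*, *Mrps15*, *Mrps24* and *Mrpl32* lay between log2 -0.11 and 0.04, with adjusted p-values of 0.666 to 0.994. The mean of *Mrps2* covers opposed probe sets. In neurons 1372116_at read 1.51, 1.99 and 2.30 (uninjured maximum 1.06), and 1382782_at read 0.457, 0.660 and 0.443 (uninjured minimum 0.888). Its probe set 1393468_at read 0.694, 0.972 and 0.822.

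The S18 paralogs are given side by side. In neurons *Mrps18b* was higher (log2 2.10 ± 0.52, adjusted p = 0.00660), *Mrps18a* was at 1.25 ± 0.76 (adjusted p = 0.178) and *Mrps18c* at -0.91 ± 0.53. In regenerating axons none passed, with *Mrps18b* at -0.09 ± 0.36, *Mrps18a* at -2.82 ± 0.70 and *Mrps18c* at -1.33 ± 0.52. Differences between the paralogs were not tested, and the values of *Mrps18c* are means over probe sets that disagreed.

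Large and small subunit were compared by symbol. In regenerating axons 3 of 46 large-subunit genes (6.52%) and 3 of 27 small-subunit genes (11.1%) were lower, where 0.689% of all genes were. The median log2 ratios were -0.39 and -0.54. In neurons 26 of 46 large-subunit genes (56.5%) and 13 of 27 small-subunit genes (48.1%) were higher, where 36.9% of all genes were. Their medians were 1.34 and 1.33. The median of the large-subunit genes minus that of the small-subunit genes was 0.28, 0.11 and 0.28 on the regenerating arrays, -0.17, -0.13 and 0.01 on the neuron arrays and -0.10 to 0.07 on the uninjured arrays. The regenerating differences were above the uninjured range on all 3 arrays, but with *Mrps30* and *Mrps18a* counted as large-subunit genes they were 0.13, 0.08 and 0.05. Counted this way the uninjured arrays spanned -0.21 to 0.10, so regenerating arrays 2 and 3 lay within the uninjured range. The neuron differences then changed sign in the mean (0.10, against -0.10 by symbol).

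The subunits were also split into genes with a bacterial homolog and mitochondria-specific genes. The split does not follow descent strictly, because the S18 paralogs *Mrps18a* and *Mrps18b* were counted as mitochondria-specific. Of large-subunit genes with a bacterial homolog, 18 of 27 were higher in neurons (median log2 1.81), against 9 of 21 mitochondria-specific ones, of which 1 was lower (0.87). In the small subunit 7 of 15 genes with a bacterial homolog (1.33) and 5 of 10 mitochondria-specific genes (1.55) were higher. The share of all genes called higher in neurons was 36.9%, and the share called lower was 23.0%. In regenerating axons the medians of the 4 classes in the same order were -0.35, -0.59, -0.84 and -0.27. These are descriptions and were not tested.

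**Figure D3:**
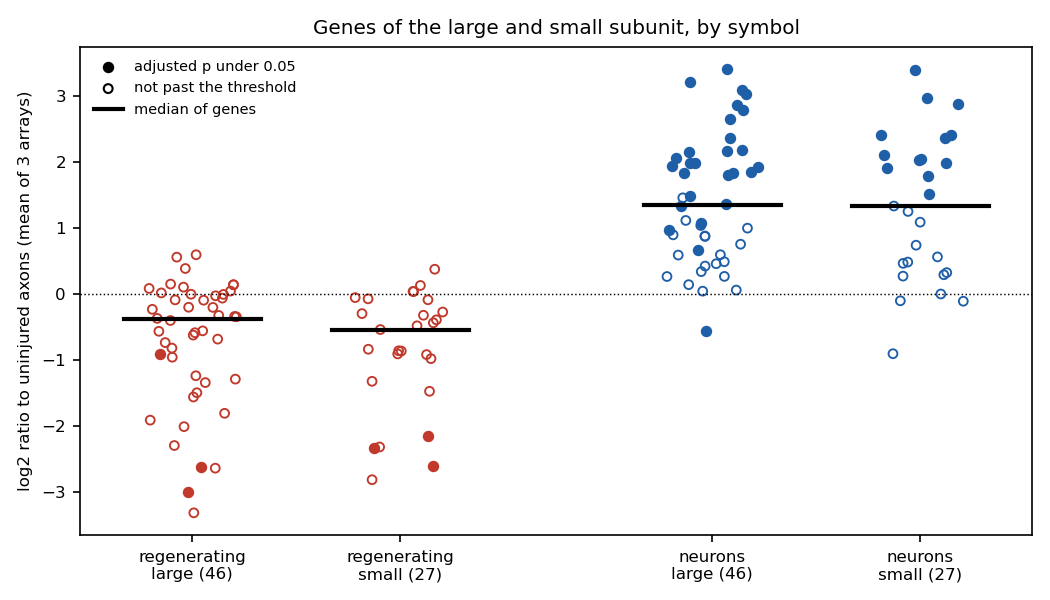
Mean log2 ratio of each gene to uninjured axons (vertical axis), in regenerating axons on the left and neurons on the right, for 46 large-subunit and 27 small-subunit genes by symbol. Filled points passed the adjusted p threshold, and bars mark the medians, -0.39 and -0.54 in regenerating axons and 1.34 and 1.33 in neurons.

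Set directly against neurons, regenerating axons were lower for nearly all members. The test called 67 genes lower (44.2% of all genes were) and 1 higher (31.3% of all genes were), and 5 did not pass. The median log2 difference was -2.11, against -0.23 over all genes, and every regenerating array lay below every neuron array for 65 genes (45.8% of all genes). This reading assumes that both groups were divided by the same level. The largest difference was that of *Mrpl17*, which read 0.330, 0.251 and 0.183 in regenerating axons, against 11.96, 7.43 and 13.3 in neurons. The groups were far apart on every array (log2 -5.42 ± 0.29, adjusted p = 2.82e-06). *Mrps25*, a mitochondria-specific small-subunit gene, read 0.209, 0.236 and 0.162 in regenerating axons, against 5.63, 2.95 and 8.19 in neurons (log2 -4.69 ± 0.35, adjusted p = 1.64e-05). *Mrpl40* was the exception in the other direction, with 1.01, 0.993 and 1.02 in regenerating axons, against 0.625, 0.749 and 0.662 in neurons (log2 0.57 ± 0.13, adjusted p = 0.00516). By probe set, 1374931_at separated the groups, while 1388517_at read 1.07, 1.18 and 1.01 in regenerating axons, against 0.983, 0.921 and 1.08 in neurons, and overlapped. The genes that did not pass were *Mrpl32*, *Mrps2*, *Mrps16*, *Mrps18c* and *Mrps27*, at log2 -0.97 to 0.11.

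Probe sets of a single gene often disagreed, which bears on the 18 genes with several. In neurons 34 of the 55 genes with 1 probe set were higher (61.8%, median log2 1.81), against 5 of the 18 with several (27.8%, 0.30). Over all genes 36.9% were called higher there. Probe sets of 1 gene had opposite signs in 10 of the 18 genes in regenerating axons and in 10 in neurons, and differed by at least 1 on the log2 scale in 8 and 13. Such disagreement was not counted over the 4525 genes of the series with more than 1 probe set, so it is not shown to be particular to the members. Tested singly, 7 of the 97 probe sets were lower in regenerating axons (0.552% of all probe sets were), none was higher there (0.0288% of all), and 49 were higher in neurons (34.2% of all), with 5 lower (21.7% of all).

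*Mrpl12* had the widest gap in neurons, 3.51 on the log2 scale. Its probe set 1372431_at read 0.359, 0.239 and 0.256 in regenerating axons and 8.72, 3.92 and 8.30 in neurons. Its probe set 1396444_at read 1.02, 0.935 and 1.08 in regenerating axons and 0.593, 0.489 and 0.656 in neurons. The pair thus pointed in opposite directions in neurons, and in regenerating axons the first alone was low. *Mrps24*, the counterpart of bacterial S3, split in the same way. Its probe set 1371649_at read 0.288, 0.183 and 0.121 in regenerating axons and 1.97, 0.973 and 2.46 in neurons. Its probe set 1378908_at read 1.11, 2.16 and 1.48 in regenerating axons and 0.455, 0.538 and 0.539 in neurons. The mean of the gene, at log2 -0.91 ± 0.31 in regenerating axons and -0.11 ± 0.33 in neurons, describes neither probe set.

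*Mrps14* had 1 probe set low and 1 high in regenerating axons. Probe set 1383090_at read 0.441, 0.371 and 0.434 in regenerating axons and 8.66, 3.49 and 14.2 in neurons, whereas probe set 1377937_at read 2.54, 1.62 and 2.48 in regenerating axons and 3.97, 2.59 and 4.96 in neurons. Both were above 1 on every neuron array, and the gene was higher there (log2 2.40 ± 0.49, adjusted p = 0.00273). *Mrpl51* was 1 of 3 members, with *Mrpl40* and *Mrps2*, that had their highest neuron value on array 2. Its probe sets 1376930_at and 1390509_a_at read 15 and 14.3 on neuron array 2, against 3.06 to 4.24 on neuron arrays 1 and 3. Neuron array 2, the lowest for 69 members, was here the highest in both.

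**Figure D4:**
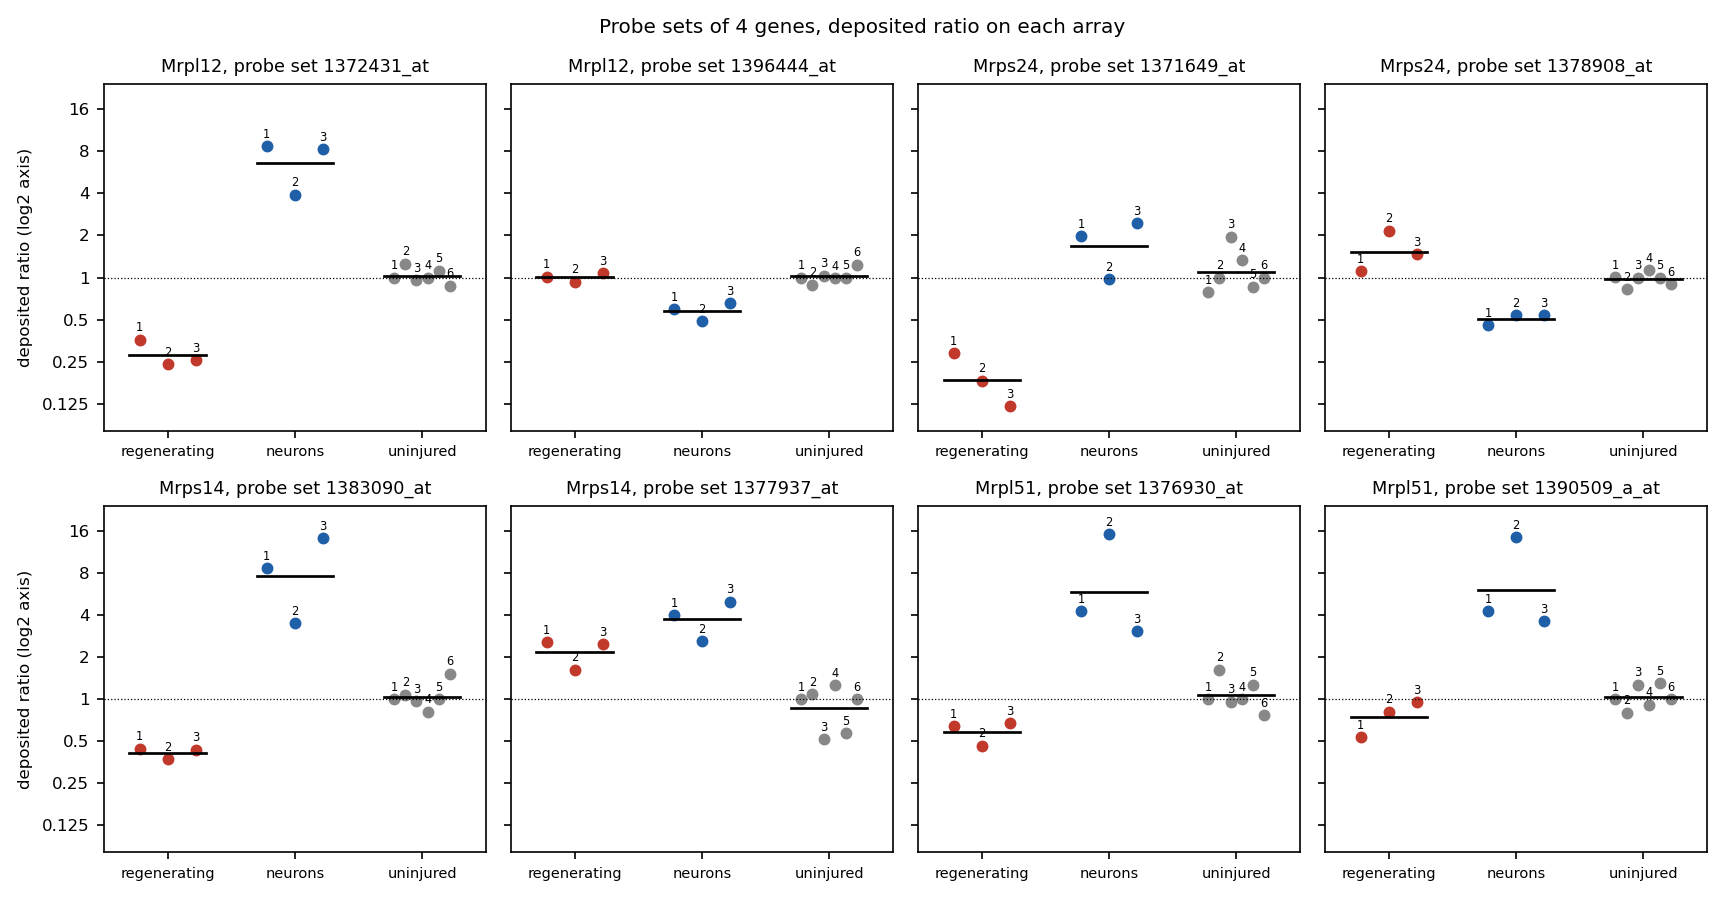
Deposited ratio per array, on a log2 axis, of single probe sets of *Mrpl12*, *Mrps24*, *Mrps14* and *Mrpl51*, with regenerating axons left, neurons in the middle and uninjured axons right. Points are arrays with their number and bars geometric means. The neuron means of the probe sets of *Mrpl12* and of *Mrps24* lie on opposite sides of 1, and neuron array 2 is highest for *Mrpl51*.

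Mitoribosomal proteins known under other names were read in the same way. Of 5 such genes, 1 was lower in regenerating axons (0.689% of all genes were) and 3 were higher in neurons (36.9% of all genes were). *Chchd1*, a small-subunit protein, read 0.390, 0.338 and 0.271 in regenerating axons, against 0.708, 1 and 1.17 in uninjured axons (log2 -1.60 ± 0.27, adjusted p = 0.0359). *Gadd45gip1*, a large-subunit protein, was at log2 -1.81 ± 0.43 (adjusted p = 0.0947), and *Dap3*, a GTP-binding small-subunit protein, at -0.30 ± 0.21 (adjusted p = 0.653). In neurons *Ptcd3*, a small-subunit protein with pentatricopeptide repeats, was highest (log2 2.14 ± 0.45, adjusted p = 0.00303).

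The other genes of mitochondrial gene expression lay closer to the median of all genes. Of 70 measured genes for translation factors, tRNA synthetases, ribosome assembly and mitochondrial DNA expression, none was called lower and 1 was called higher in regenerating axons (median log2 0.04), and in neurons 28 were higher and 8 lower (median 0.52). Over all genes 0.689% were called lower and 0.0352% higher in regenerating axons, and 36.9% were called higher and 23.0% lower in neurons. At an unadjusted p under 0.05, limma gave 2 lower in regenerating axons, where 1247 of the 14217 genes were. With the reference taken as exact, 4 were called lower there, where 14.0% of all genes were. The assembly gene *C1qbp* read 0.255, 0.125 and 0.1465 in regenerating axons, below the uninjured minimum of 0.307 (log2 -2.58 ± 0.68, adjusted p = 0.120). *Hsd17b10*, of mitochondrial DNA expression, read 0.446, 0.247 and 0.282, below the uninjured minimum of 0.666 (log2 -1.67 ± 0.42, adjusted p = 0.106). Neither passed the test. The gene called higher in regenerating axons was *Nsun4*, which encodes a methyltransferase that acts in mitoribosome assembly. It read 1.73, 1.68 and 1.72 in regenerating axons, against 0.943, 0.982 and 1.04 in uninjured axons (log2 0.77 ± 0.14, adjusted p = 0.0422).

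In neurons, where 36.9% of all genes were called higher and 23.0% lower, 6 of 14 translation factors were higher and 1 lower. *Tufm*, the elongation factor Tu of mitochondria, rose (log2 1.71 ± 0.25, adjusted p = 0.000445), and *Taco1*, a translational activator of a cytochrome oxidase subunit, fell (-0.88 ± 0.22, adjusted p = 0.00676). Of 16 tRNA synthetase genes, 5 were higher, led by *Yars2* for tyrosine (1.86 ± 0.21), and 5 lower, led by *Nars2* for asparagine (-2.64 ± 0.30). Of 23 assembly and ribosomal RNA modification genes, 7 were higher, led by *Malsu1* (3.81 ± 0.52), and 2 lower. Of 17 genes of mitochondrial DNA expression, 10 were higher, led by *Tfam*, which packages mitochondrial DNA (3.07 ± 0.40), and none was lower by limma (0 at an unadjusted p under 0.05, where 3652 of the 14217 genes were).

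Subunits of respiratory complex I and of the cytosolic ribosome give a scale for these values. In regenerating axons 10 of 35 complex I genes were lower (0.689% of all genes were), with a median log2 of -2.09. None of 42 cytosolic ribosomal protein genes was called by limma, and their median was -3.42. At an unadjusted p under 0.05, 39 of them were lower, where 1247 of the 14217 genes were. The lowest of them, *Rplp0*, read 0.478, 0.01 and 0.01 in regenerating axons, the last 2 at the table floor, and 0.105 on uninjured array 1. In neurons 14 of the complex I genes were higher (36.9% of all genes were) and none lower (23.0% of all genes were), with a median of 1.16. By limma none was lower at an unadjusted p under 0.05 either, where 3652 of the 14217 genes were. Of the cytosolic ribosomal protein genes 1 was higher and 10 were lower in neurons (median -0.61). The median of the mitochondrial ribosomal protein genes, -0.49 in regenerating axons and 1.33 in neurons, thus lay nearer to 0 than both in regenerating axons and above both in neurons. Differences between these lists were not tested.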

How the data were processed

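Polyadenylated RNA of regenerating axons (3 arrays), neurons (3) and uninjured axons (7) was measured on GeneChip arrays. The deposited value table holds linear ratios of 31099 probe sets, and, per the submitters' processing notes, RMA was used, with no version given. Array signals were not used here, so the depth is unknown, and the number of arrays limits the precision. Tested on the values, the median over uninjured arrays 1 to 3, and likewise 4 to 6, is 1 in 100% of probe sets (tolerance 1e-04), and array 7 is 1 throughout. The denominator of the other arrays is not given in the sources used here.

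Symbols came from the platform annotation. All 73 member identifiers were found in the RefSeq table of GRCr8, and 0 symbols changed. After removal of 57 control probe sets, 20826 had 1 symbol, 436 several and 9780 none. The log2 of the deposited ratios was averaged over the probe sets of a gene. Tests used limma 3.58.1 in R 4.3.3 over all 14217 genes with Benjamini-Hochberg adjustment. Against uninjured axons, the group mean was set against a reference of 1 array, with the spread pooled from the 3 arrays and the uninjured arrays within their ratio sets, so the error of the reference is assigned, not measured. Regenerating axons and neurons were compared by a 2-group fit. The scripts were tested on simulated data.

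The members and lists were chosen with earlier results of these data known. Named members are those with the 6 largest and 6 smallest regenerating ratios, such as *Mrpl42* and *Mrpl33*, and the 8 largest and 6 smallest neuron ratios. Also among them are every gene called lower in regenerating axons, every gene with several probe sets and 8 fixed genes. Of the fixed genes, *Mrps36* is not represented by a single-symbol probe set. Values of *Mrpl50*, *Mrps9*, *Mrps22* and *Mrps26*, which have several probe sets, are not given singly. The genes named only beside a motif, *Mrps25* in the comparison with neurons, *Mrps16*, *Mrpl38*, *Mrpl1* and *Mrpl48* were named after their values were seen. From the other lists the largest and smallest value in each comparison were eligible. Alternatives were another scaling, other treatments of the reference, of several probe sets and of ratios at the table floor (0.01), a robust prior, a replicate block and leaving out arrays. Promoter windows were the 250 bases before each RefSeq start.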

Additional observations from a re-analysis of the deposited data

Results flagged for a closer look

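Among 39 named members, 3 had 1 uninjured array far from the other 5, and in all 3 this was uninjured array 1, the lowest. Chance gives such a distance in about 1 in 20 groups of free values, but these ratios are divided by the median of their own set, so that rate does not hold here and the distance is given as a description. The ratio on that array was 0.373 for *Mrps15*, 0.272 for *Mrps18a* and 0.762 for *Mrps21*. For *Mrps15* the low value came from probe set 1372697_at, at 0.140 on that array. Uninjured array 1 was the lowest of arrays 1 to 3 for 46 of the 73 genes (63.0%, against 36.6% of all genes) and at 0.5 or less for 5, namely *Mrpl1*, *Mrpl32*, *Mrpl48*, *Mrps15* and *Mrps18a* (6.85%, against 1.60% of all genes). Without this array in the spread, 12 members were called lower in regenerating axons. The cause was not tested.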

How the results depend on the processing

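With the reference taken as exact, the count of members lower in regenerating axons was 36 and that of members higher 2, and with the 6 uninjured arrays as an ordinary group 33 and 2, against 6 and 0 as reported. Without uninjured arrays 4 to 6 in the spread 0 were lower, and leaving out 1 array at a time gave 0 to 12. Of 13 alternatives tried per gene, the 6 genes called lower kept their call in 9 to 11, with adjusted p-values from 7.11e-05 to 0.131. In neurons 1 member was lower as reported, 2 with the exact reference, 2 with the ordinary group, 5 as single probe sets, 0 without uninjured arrays 1 to 3 in the spread and 0 to 1 with 1 array left out, while 34 to 54 were higher with 1 array left out. With the exact reference 57 members were higher in neurons and with the ordinary group 55, against 39 as reported. Except for single probe sets, the shares of all genes in these neuron settings were not counted. As single probe sets, 7 were higher in regenerating axons than in neurons, against 1 as reported. Of the other genes of mitochondrial gene expression, 8 were higher and 4 lower in regenerating axons and 14 lower in neurons with the exact reference, against 1, 0 and 8. In that setting 11.2% of all genes were higher and 14.0% lower in regenerating axons. In neurons 41 of these other genes were higher with the exact reference, against 28. The mean difference of large and small subunit medians in regenerating axons was 0.085 by structure and 0.12 from means, against 0.22, and in neurons 0.10 by structure, 0.10 from means and 0.23 from probe sets, against -0.10. These changes follow from how the reference, the probe sets and the arrays enter, and their cause was not tested further.

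The samples share only a number. Regenerating and neuron arrays of the same number correlated at 0.17, 0.18 and -0.11 in their deviations from the group means, and not every array correlated best with its own number. With the number as a replicate block, 8 members were lower and 0 higher in regenerating axons, 52 higher and 1 lower in neurons, and 67 lower and 1 higher in regenerating axons than in neurons. The shares of all genes under the block were not counted.

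Some named members changed sign, most of them near 0 as reported. The exceptions include *Mrps15* and *Mrps24*, whose probe sets disagreed and which stood at -1.48 and -0.91 in regenerating axons, and at -1.47 and -0.80 between regenerating axons and neurons. In regenerating axons with the uninjured arrays as a group, *Mrpl19* was at -0.00385, *Mrpl57* at 0.00988 and *Mrps14* at 0.00216. With the block, *Mrpl19* was at -0.0041 and *Mrps14* at 0.053, and with 1 common array median *Mrpl40* was at -0.000502. With the probe set of the highest mean, *Mrpl37* was at 0.30, *Mrps14* at 1.12, *Mrps15* at 0.18 and *Mrps24* at 0.61. With 1 array left out the ranges were -0.0075 to 0.22 for *Mrpl19*, -0.10 to 0.48 for *Mrpl32*, -0.13 to 0.074 for *Mrpl57*, -0.16 to 0.067 for *Mrps14*, -0.21 to 0.050 for *Mrps18b* and -0.020 to 0.060 for *Mrps27*. In neurons with 1 common median, *Mrpl32* was at -0.18 and *Mrpl52* at -0.17. With the uninjured arrays as a group, *Mrpl52* was at -0.072 and *Mrps15* at 0.23, and with the block *Mrps15* was at 0.43. With the probe set of the highest mean, *Mrpl52* was at -0.12, *Mrps15* at 0.024 and *Mrps2* at 0.93. In that setting *Mrps2* was called higher by limma (adjusted p = 0.0109), whereas as reported it stood at -0.11 and did not pass. With 1 array left out the ranges were -0.21 to 0.33 for *Mrpl32*, -0.092 to 0.76 for *Mrpl33*, -0.068 to 0.29 for *Mrpl52*, -0.21 to 0.23 for *Mrps15*, -0.22 to 0.015 for *Mrps2* and -0.27 to 0.061 for *Mrps24*. Between regenerating axons and neurons, *Mrps2* was at 0.014 with 1 common median, *Mrps15* at 0.15 and *Mrps24* at 1.58 with the probe set of the highest mean, where *Mrps24* was called the other way (adjusted p = 0.000601), and *Mrpl32* ranged from -0.19 to 0.44 with 1 array left out. None of these values was called in the reported comparisons except those of *Mrps15* and *Mrps24* between regenerating axons and neurons. The other alternative values of the named members kept their direction, but calls were gained in 40 and lost in 19 of 507 values in regenerating axons, in 39 and 5 of 507 in neurons, and in 5 and 22 of 429 between regenerating axons and neurons.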
